A study of Mus musculus with 5 samples.

Results

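Iron handling and metallothionein genes were followed across the cells of mouse mammary tumours in 5 single-cell RNA libraries. The set held 10 genes of the 24860 gene symbols counted, matched by symbol, and all 10 were present. They were Lcn2, Slc11a1 and Tfrc, which capture or move iron, Fth1 and Ftl1, which store it, Slc40a1 and Cp, which take part in its export, Hmox1, which frees it from heme, and the metallothioneins Mt1 and Mt2. No measured value entered the choice rule, although earlier results of these data were known when the genes were listed.

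The tumours grew from SSM2, a mouse mammary tumour cell line placed in the left mammary gland numbered 4 of mice aged 10 to 12 weeks. Progesterone mice carried a progesterone (P4) pellet under the skin of the neck and placebo mice a placebo pellet there, with 60 mg released over 60 days, and tumours were taken after 28 to 62 days. Tumours were broken up by enzyme digestion, red cells were removed, and each transcript molecule was tagged at its 3′ end with a unique molecular identifier (UMI). The progesterone group had 3 libraries and the placebo group 2: batch 1 held Progesterone 1 and Placebo 1, and batch 2 held Progesterone 2, Progesterone 3 and Placebo 2. The series title concerns how progesterone alters the immune cells around the tumour. Every library shared the tumour line, so nothing here separates this line from other mammary tumours. The labels do not tie libraries to animals, and the deposited names of Progesterone 2 and Progesterone 3 carry a common identifier with the letters L and R. All p-values therefore measure the spread between libraries, which may be technical.

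Cells take up iron mainly by binding transferrin at the cell surface, keep what they do not use inside ferritin shells, and release it through ferroportin, the product of Slc40a1. Iron regulatory proteins bind hairpins in several of these mRNAs when iron is scarce, which blocks translation of ferritin and ferroportin and protects the transferrin receptor mRNA from decay. In tissues, macrophages recycle iron from old red cells, neutrophils and inflamed epithelia secrete lipocalin 2 to keep iron from bacteria, and metallothioneins bind zinc and copper and are induced by metals and glucocorticoids.

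The hairpins are shown because 4 of the 10 genes carry this shared element, the iron-responsive element. Each run of 29 bases below comes from the GENCODE M21 transcripts on GRCm38, reads 5′ to 3′ on the gene's strand, and has the 6-base loop, CAGTGN, in capitals between arms that pair.
Fth1, 5′ UTR, chr19:9982732-9982760, plus strand: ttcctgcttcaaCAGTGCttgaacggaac
Ftl1, 5′ UTR, chr7:45459779-45459807, minus strand: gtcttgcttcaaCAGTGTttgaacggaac
Slc40a1, 5′ UTR, chr1:45925465-45925493, minus strand: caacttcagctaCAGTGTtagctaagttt
Tfrc, 3′ UTR, chr16:32631219-32631247, plus strand: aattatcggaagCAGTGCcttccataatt
Tfrc, 3′ UTR, chr16:32631598-32631626, plus strand: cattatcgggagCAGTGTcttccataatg
Tfrc, 3′ UTR, chr16:32631663-32631691, plus strand: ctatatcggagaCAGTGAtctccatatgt
Tfrc, 3′ UTR, chr16:32631710-32631738, plus strand: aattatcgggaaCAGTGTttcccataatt
The loop lies before the coding sequence in both ferritin genes and in Slc40a1, and 4 times after it in Tfrc. Paired arms with this loop were found in the UTRs of 155 of 21875 coding genes (0.709%). A match of letters is a description and not a measurement of binding.

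Mt1 and Mt2 lie close together on chromosome 8 of GRCm38, at chr8:94179082-94180327 and chr8:94172664-94173568 on the plus strand. The 250 bases before each RefSeq start are shown because both genes were lower under progesterone in the sums of the epithelial class. Capitals mark metal response elements, searched as TGCACNC and TGCGCNC on both strands.
Mt1, chr8:94178839-94179088, plus strand: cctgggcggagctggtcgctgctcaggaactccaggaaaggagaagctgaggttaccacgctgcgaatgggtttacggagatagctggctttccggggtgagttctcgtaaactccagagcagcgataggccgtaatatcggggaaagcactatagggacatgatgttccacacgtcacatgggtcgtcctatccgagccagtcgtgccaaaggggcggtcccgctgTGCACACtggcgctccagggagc
Mt2, chr8:94172368-94172617, plus strand: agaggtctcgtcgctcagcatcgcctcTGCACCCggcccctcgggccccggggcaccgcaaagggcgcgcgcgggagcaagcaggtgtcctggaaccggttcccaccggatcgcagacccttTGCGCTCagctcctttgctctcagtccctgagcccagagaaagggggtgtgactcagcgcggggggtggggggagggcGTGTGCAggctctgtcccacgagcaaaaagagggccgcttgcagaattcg
These windows are from RefSeq on GRCm38.p6. The Mt1 window held 1 such element and the Mt2 window 3, while 21.4% of 32851 windows of this length held at least 1 and 1.26% held at least 3. A Tfrc window held 2 that overlapped. The Mt1 window ended at 94179088, past the gene start given above, and the Mt2 window at 94172617, before its own. Bases outside these windows were not searched, so the counts are not those of whole promoters.

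Cells were sorted into classes by marker genes, and a class name means cells that are like that type by their markers. Median UMIs per barcode lay between 6172 and 8211.5 in batch 1 and between 23702 and 25315.5 in batch 2, and 2 to 12 barcode sequences were shared by any pair of libraries. Placebo 1 stood apart: it held 4028 T cells but 2 epithelial cells and 15 macrophages, against 2886 epithelial cells and 625 macrophages in Placebo 2. The progesterone libraries held 88, 3114 and 3266 epithelial cells and 296, 973 and 587 macrophages, in the order of their numbers. Epithelial cells could therefore be compared only between progesterone libraries and Placebo 2. Levels below are UMIs per 1000000 UMIs (CPM) of the same class and library, and intervals are exact Poisson intervals at 95% that cover counting error only.

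Each gene had its own distribution over cell classes. Slc11a1, a metal transporter of the phagosome, was found almost only in phagocytes: its median level was 159 CPM in neutrophils (range 77.0 to 335 over 3 libraries) and 95.3 CPM in macrophages (63.4 to 115 over 5 libraries). The next class, conventional dendritic cells, had a median of 3.41 CPM. Macrophages held 77.3%, 90.02% and 87.4% of the Slc11a1 UMIs in the progesterone libraries, against 70.4% and 94.0% in the placebo libraries. The ranges of neutrophils and macrophages overlapped, so those neighbours in the order were not apart beyond their spread.

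The ferritin genes were highest in myeloid cells. Fth1, the heavy chain that oxidises iron for storage, had medians of 24462 CPM in neutrophils (22007 to 24683), 14422 CPM in macrophages (9492 to 19158), 11795 CPM in plasmacytoid dendritic cells (8158 to 13594) and 7449 CPM in conventional dendritic cells (2098 to 10175). The 3 neutrophil libraries lay above every macrophage library, while the other neighbours overlapped. Ftl1, the light chain, had medians of 6400 CPM in macrophages (3861 to 7197) and 4070 CPM in neutrophils (4063 to 8154), which overlapped. T cells had the lowest Ftl1 median, at 593 CPM. Plasmacytoid dendritic cells were high in Fth1 but not in Ftl1 (median 1401 CPM), so their ratio of Fth1 to Ftl1 UMIs was 8.94 (5.62 to 9.52 over 4 libraries), against 2.46 in macrophages (2.17 to 2.93 over 5 libraries). Neutrophils had a ratio of 6.01 (2.70 to 6.08 over 3 libraries), which overlapped the plasmacytoid range. RefSeq lists the ferritin pseudogenes Ftl1-ps1, Ftl1-ps2, Ftl2-ps, Fth-ps2 and Fth-ps3, and reads shared with such near copies leave the ferritin levels uncertain.

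Tfrc, the transferrin receptor that brings iron into cells, had its highest medians in plasmacytoid dendritic and lymphoid cells, with neutrophils close to the lymphoid classes. Its median was 130 CPM in plasmacytoid dendritic cells, 108 CPM in T cells and 90.8 CPM in B cells, against 51.3 CPM in epithelial cells and 16.1 CPM in macrophages. Neutrophils had a Tfrc median of 83.6 CPM over 3 libraries. Their range, 53.1 to 138 CPM, overlapped those of T cells, B cells and plasmacytoid dendritic cells, so they were not apart beyond their spread. When cells were thinned to equal depth, neutrophils had the highest median share of cells with a Tfrc UMI. Every T cell library (84.7 to 127 CPM) lay above every macrophage library (11.05 to 40.0 CPM). Hmox1, the enzyme that opens the heme ring, was highest in macrophages, with a median of 540.1 CPM and a range of 76.8 to 778 CPM, and second in neutrophils at 125 CPM. Placebo 1, with 15 macrophages, gave the lowest of those macrophage values.

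Lcn2, the secreted protein that binds iron-carrying siderophores, was found mainly in neutrophils (median 305 CPM, 112 to 976) and epithelial cells (207 CPM, 142 to 1082). Endothelial cells, with 68 UMIs in all, followed at 78.9 CPM (22.7 to 210 over 3 libraries) and overlapped both. At equal depth the highest median share of cells with a Lcn2 UMI was in endothelial cells. The neutrophil values rested on a handful of cells: 5 of 327 cells held 1154 of the 1483 UMIs in Progesterone 1, 1 of 25 cells held 17 of the 23 UMIs in Progesterone 2, and Progesterone 3 had 8 UMIs. Epithelial cells held 98.6% of the Lcn2 UMIs in Progesterone 2 and 98.6% in Progesterone 3, against 98.7% in Placebo 2. In Progesterone 1, where epithelial cells were few, neutrophils held 54.8% of them. Cp, the ferroxidase that loads iron onto transferrin, was highest in endothelial cells at a median of 266 CPM (34.1 to 296 over 3 libraries), and 58 of the 120 endothelial Cp UMIs of Progesterone 1 came from 1 cell. Its next class, fibroblasts, had a median of 13.2 CPM.

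The metallothioneins were highest in fibroblasts, with medians of 1703 CPM for Mt1 (557 to 3042) and 967 CPM for Mt2. Epithelial cells followed for Mt1 at 1439 CPM (923 to 2293) and macrophages at 1209 CPM (123 to 1526), and these 3 ranges overlapped. The balance within the pair differed by class: the ratio of Mt1 to Mt2 UMIs was 1.76 in fibroblasts (1.37 to 2.24 over 4 libraries), 5.54 in macrophages (4.55 to 7.98 over 4 libraries) and 6.59 in epithelial cells (5.73 to 6.79 over 4 libraries). Fibroblasts did not overlap the other classes in this ratio. The plot of levels by class and library shows these orders.

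**Figure D1:**
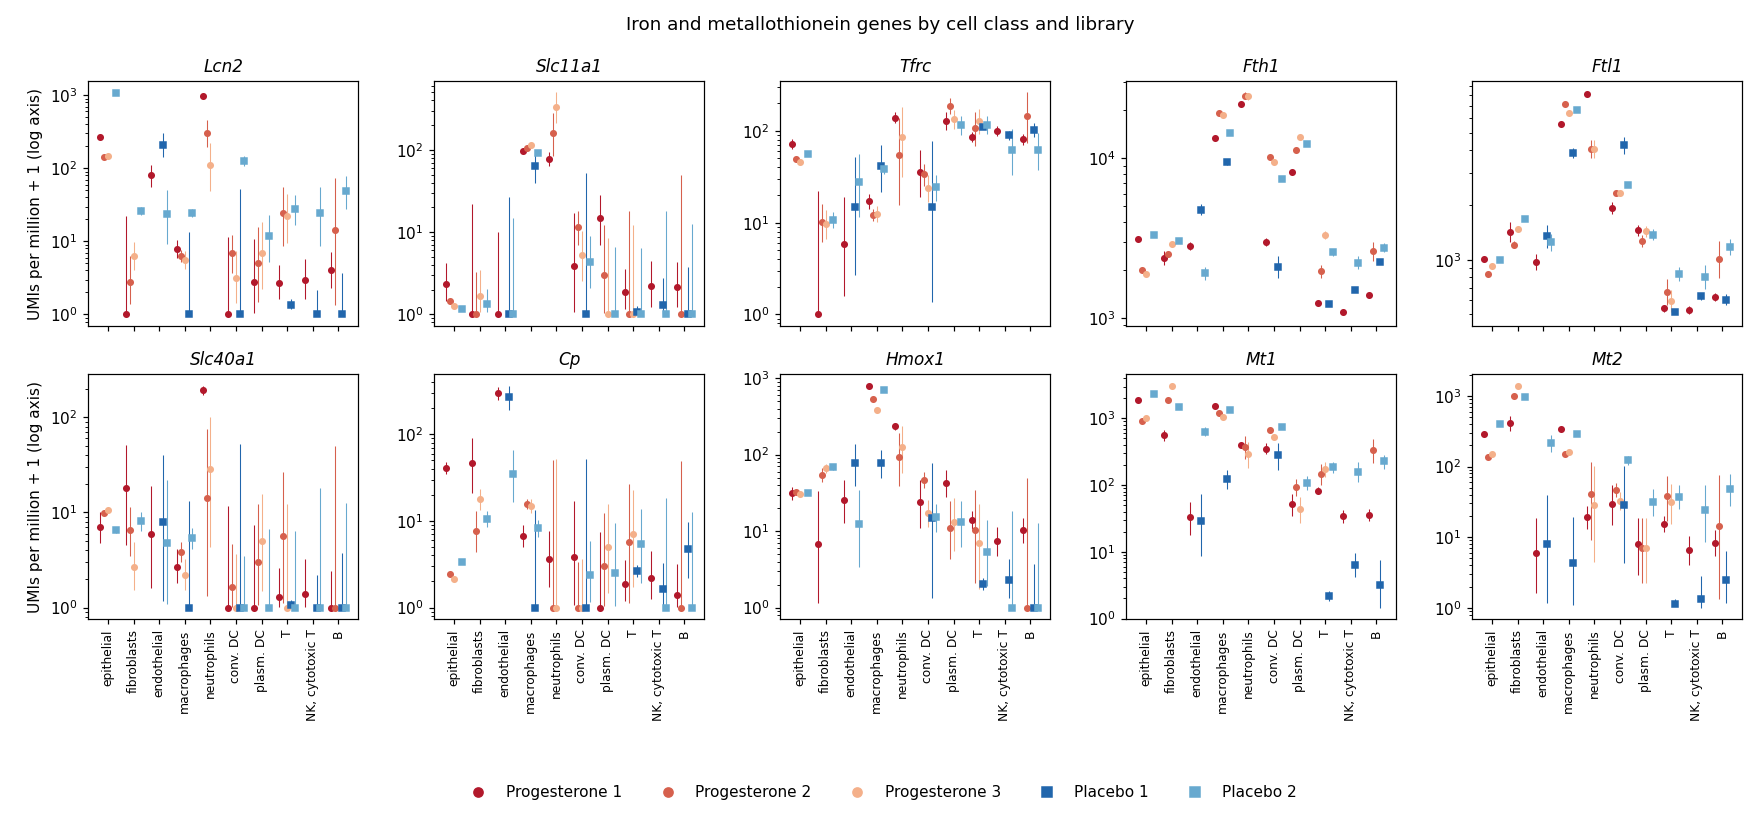
Level of each of the 10 genes in CPM plus 1 (log axis) in every class with at least 10 cells in a library, with exact Poisson intervals at 95%. Circles are progesterone libraries and squares placebo libraries, and Slc11a1 stands above 60 CPM only in macrophages and neutrophils while Cp is highest in endothelial cells.

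Which changes with treatment were seen in the epithelial cells of the tumours was asked with edgeR's quasi-likelihood test on UMIs summed per library, with batch as a term and Benjamini-Hochberg adjustment over all 16684 genes tested. Lcn2, both metallothioneins, both ferritin genes, Tfrc and Cp fell and Slc40a1 rose, so 8 of the 10 members passed, 7 lower and 1 higher. Of all genes tested in these cells, 49.2% were called, 24.1% higher and 25.1% lower, so a call in this class is common. The median log2 change was -0.65 over the 10 members and 0.01 over all genes. Placebo 1 had 2 epithelial cells, under the minimum of 10 cells per library, and was left out, so that the batch term left Progesterone 2 and Progesterone 3 against Placebo 2 alone, with 1 residual degree of freedom. That degree of freedom came from Progesterone 2 against Progesterone 3, the pair whose names carry a common identifier. Placebo 2, alone in its group, was taken to vary like that pair. No spread between placebo libraries entered these p-values. Fitted changes follow TMM scaling and differ somewhat from the ratios of CPM values. Without the batch term no member passed, and Lcn2 was at -2.76 (adjusted p = 0.139). After thinning to the lowest total, Tfrc, Ftl1 and Slc40a1 no longer passed (adjusted p = 0.364, 0.142 and 0.0911).

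Lcn2 showed the widest gap of the 10 members. It was at 269, 142 and 145 CPM in the progesterone libraries, against 1082 CPM in Placebo 2. All 3 progesterone libraries lay far below the placebo library, Progesterone 1 of the other batch included. The fitted log2 change was -3.06 (SE 0.108, edgeR adjusted p = 1.78e-14). A Lcn2 UMI was seen in 31.8%, 32.4% and 29.4% of epithelial cells of the progesterone libraries, against 78.0% in Placebo 2. T cells, which should lack the gene, had a Lcn2 UMI in 1.55%, 11.1% and 3.28% of progesterone cells, against 13.7% in Placebo 2, at median depths of 8337.5, 4135 and 4604 UMIs and 4699.5 UMIs. Epithelial depths were 29214.5, 49724.5 and 41869.5 UMIs in the progesterone libraries, against 43663.5 in Placebo 2. A share of cells rises with depth, so the shares of the 2 classes cannot be set against each other. As levels, Lcn2 was at 0.348 to 26.3 CPM over 5 T cell libraries and at 142 to 1082 CPM over 4 epithelial libraries. Slc11a1 was close to its floor, at 1.38, 0.463 and 0.273 CPM against 0.168 CPM, and did not pass (log2 change 0.93, SE 0.417, adjusted p = 0.0729).

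Tfrc was at 71.4, 47.8 and 44.6 CPM in the progesterone libraries, against 54.9 CPM in Placebo 2. The 2 progesterone libraries of the same batch lay below the placebo library and Progesterone 1 above it. The log2 change was -0.39 (SE 0.0912, edgeR adjusted p = 0.00131).

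Fth1 was at 3112, 2011 and 1892 CPM in progesterone epithelial cells, against 3296 CPM in Placebo 2. Every progesterone library was lower, Progesterone 1 only slightly. The log2 change was -0.90 (SE 0.125, edgeR adjusted p = 6.36e-06). Ftl1 was at 1006, 836 and 924 CPM, against 997 CPM in Placebo 2. It differed less than Fth1, with Progesterone 1 at the placebo level, and its log2 change was -0.33 (SE 0.118, edgeR adjusted p = 0.0275).

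Slc40a1, the cell's iron exporter, was the member that rose. It was at 6.07, 8.97 and 9.59 CPM in the progesterone libraries, against 5.49 CPM in Placebo 2. All 3 progesterone libraries were higher, at low levels throughout, and the log2 change was 0.61 (SE 0.131, edgeR adjusted p = 0.000733), a call that DESeq2 did not make (adjusted p = 0.14). Cp was at 40.0, 1.45 and 1.14 CPM, against 2.38 CPM in Placebo 2. Progesterone 1 was far above all other libraries, and the fit, which set the 2 others against Placebo 2, gave a log2 change of -1.01 (SE 0.198, edgeR adjusted p = 0.00032). Without the batch term the fitted Cp change was 2.24 and did not pass. Hmox1 was nearly level, at 30.1, 31.8 and 29.2 CPM against 30.1 CPM (log2 change -0.13, SE 0.0965, adjusted p = 0.293).

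Mt1 was at 1864, 923 and 1013 CPM in the progesterone libraries, against 2293 CPM in Placebo 2. Mt2 was at 288, 138 and 149 CPM, against 400.1 CPM. Both genes were lower in each progesterone library, and Progesterone 1 was the nearest to the placebo library. The log2 changes were -1.39 for Mt1 (SE 0.119, edgeR adjusted p = 1.01e-08) and -1.63 for Mt2 (SE 0.103, edgeR adjusted p = 1.25e-10).

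**Figure D2:**
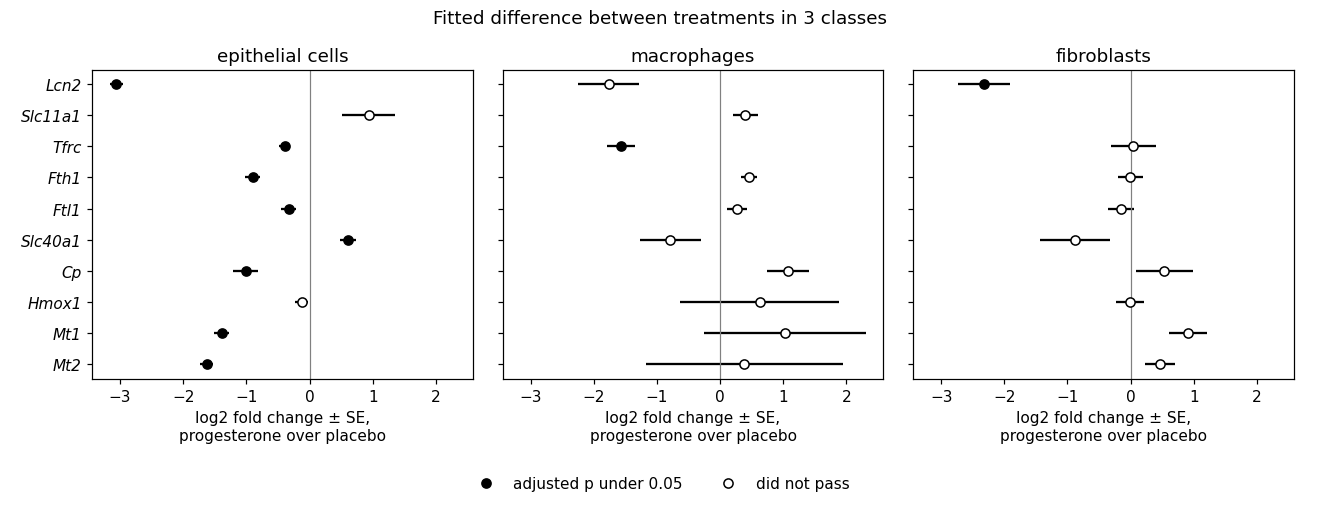
Fitted log2 fold change of each member, progesterone over placebo, with its standard error, in epithelial cells, macrophages and fibroblasts; filled points passed the adjusted threshold of 0.05. Epithelial cells hold 8 filled points, macrophages 1 (Tfrc) and fibroblasts 1 (Lcn2), and Slc11a1 was not tested in fibroblasts.

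The epithelial cells of the treatments fell into different clusters, which are called here by their leading genes. The Dcpp1 and Gcg cluster held at most 1.14% of the epithelial cells of each progesterone library, against 80.8% in Placebo 2, where the Fgb and Gcg cluster held another 14.8%. The Krt6a and Muc19 cluster held 29.96% and 30.4% of the epithelial cells of Progesterone 2 and Progesterone 3, and the Defb1 and Calca cluster 28.003% and 25.1%. The few cells of Placebo 2 in those clusters, 27 in each, allow a description at matched cluster. The Nrxn3 and Celf4 cluster, with 16 cells in Placebo 2, and the Dcpp1 and Gcg cluster, with 11 cells in Progesterone 2, also allowed it. Their levels are shown only in the plot of epithelial clusters.

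Lcn2 was lower under progesterone in both the Krt6a and Muc19 and the Defb1 and Calca clusters. In the Krt6a and Muc19 cluster it was at 119 and 109.3 CPM in Progesterone 2 and Progesterone 3, against 737 CPM in Placebo 2. In the Defb1 and Calca cluster it was at 57.8, 216 and 208 CPM in the progesterone libraries, against 760.5 CPM in Placebo 2. No such gap appeared in the P4ha2 and Ndrg1 cluster, at 326, 117 and 219.96 CPM against 247 CPM, where Placebo 2 had 11 cells. The Wfdc18 and Csn3 cluster, led by milk genes, was high everywhere, at 659 and 4457 CPM in Progesterone 1 and Progesterone 2, against 1701 CPM in Placebo 2.

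Fth1 did not follow the class total in the Krt6a and Muc19 and the Defb1 and Calca clusters. Fth1 in the Krt6a and Muc19 cluster was at 1760 and 1718 CPM in Progesterone 2 and Progesterone 3, against 1440.0 CPM in Placebo 2. In the Defb1 and Calca cluster it was at 2408, 2383 and 2342 CPM in the progesterone libraries, against 1878 CPM in Placebo 2. These values were higher under progesterone, where the class total was lower. Mt1 was mixed: 848 and 837 CPM against 532 CPM in the Krt6a and Muc19 cluster, but 884, 782 and 923 CPM against 1241 CPM in the Defb1 and Calca cluster. Its highest value was in the P4ha2 and Ndrg1 cluster of Progesterone 1, at 4126 CPM. Slc40a1 in the Krt6a and Muc19 cluster was at 11.7 and 13.0 CPM in Progesterone 2 and Progesterone 3, against 3.44 CPM in Placebo 2. The part of the cluster make-up in the class changes was not tested.

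The Cp UMIs of Progesterone 1 came from few cells. The Wfdc18 and Csn3 cluster held 38 of its 88 epithelial cells and 91.0% of its epithelial Cp UMIs. Within that cluster Cp was at 140.3 and 208 CPM in Progesterone 1 and Progesterone 2, against 197 CPM in Placebo 2. The class of these cells was uncertain: keratins and Epcam summed to 1803 and 13617 CPM in Progesterone 1 and Progesterone 2, against 13870 CPM in Placebo 2, and fibroblast markers were the cluster's second-highest list. At Leiden resolution 2, 6 cells of Progesterone 1 were in the cluster led by Wfdc18 and Csn3, and 49 were in an unnamed cluster led by Col6a5 and Rgs5. Without doublet removal the cluster led by Wfdc18 and Csn3 stayed unnamed. Fibroblast markers summed to 2513 CPM in the epithelial class of Progesterone 1, and their part in its Cp level was not tested. Without these cells the log2 change of Cp was -0.62 (edgeR adjusted p = 0.0249), an alternative chosen after seeing the data.

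**Figure D3:**
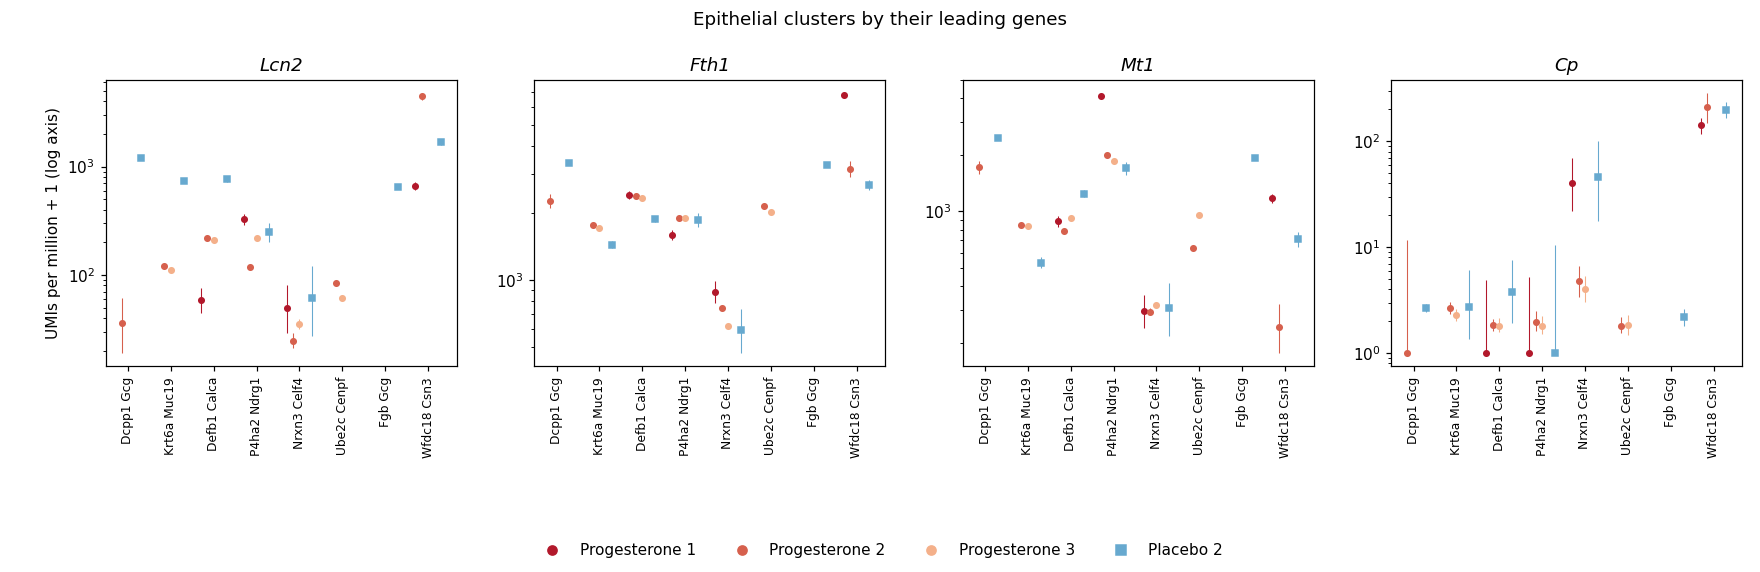
Levels of Lcn2, Fth1, Mt1 and Cp in CPM plus 1 (log axis) in the epithelial clusters, named by leading genes, with exact Poisson intervals at 95%. Circles are progesterone libraries and the square is Placebo 2; Lcn2 is higher in Placebo 2 in the Krt6a and Muc19 and the Defb1 and Calca clusters, and Cp is highest in the Wfdc18 and Csn3 cluster in all 3 libraries shown there.

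In macrophages, Tfrc fell and no other member passed. The 5 libraries all entered this fit, with 2 residual degrees of freedom, and 1 of the 10 members was called, against 1.36% of 11821 genes (0.761% lower). Tfrc was at 16.1, 11.05 and 11.5 CPM in the progesterone libraries, from 95, 153 and 88 UMIs, against 40.0 and 37.1 CPM in the placebo libraries, from 12 and 333 UMIs. The groups did not overlap. The log2 change was -1.57 (SE 0.226, edgeR adjusted p = 0.00587). Within batch 1 the ratio of progesterone to placebo was 0.401 (95% interval 0.219 to 0.804), and within batch 2 it was 0.298 and 0.311. Of the 12 UMIs of Placebo 1, 6 came from 1 cell, the only one of that library in the cluster led by Apoe and Ms4a7. In the cluster led by Ms4a4c and Mucl1, which held the other 14 cells, Tfrc was at 13.3 CPM in Progesterone 1 (interval 9.85 to 17.5), against 22.1 CPM in Placebo 1 (8.11 to 48.1), so the intervals overlapped. The call was lost without Progesterone 2 (adjusted p = 0.13), Progesterone 3 (0.102) or Placebo 2 (0.11), each with the same sign, and also without the batch term (0.979) and after thinning to the lowest total (0.409).

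Fth1, Ftl1 and Slc11a1 did not pass in macrophages. Fth1 was at 13369, 19158 and 18735 CPM in the progesterone libraries, against 9492 and 14422 CPM in the placebo libraries. Each progesterone library lay above the placebo library of its own batch, while across batches the groups overlapped (log2 change 0.46, SE 0.127, adjusted p = 0.0969). Ftl1 was at 5539, 7197 and 6400 CPM, against 3861 and 6645 CPM (log2 change 0.27, SE 0.152, adjusted p = 0.465). Slc11a1 was at 95.3, 106 and 115 CPM, against 63.4 and 90.9 CPM. Its groups did not overlap, yet the log2 change of 0.40 had an SE of 0.20 and did not pass (adjusted p = 0.39).

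Hmox1 and the metallothioneins depended on Placebo 1. Hmox1 was at 778, 540.1 and 379.8 CPM in progesterone macrophages, against 76.8 and 701 CPM in the placebo libraries. Mt1 was at 1526, 1209 and 1034 CPM, against 123 and 1339 CPM, and Mt2 at 335, 152 and 160.2 CPM, against 3.34 and 289 CPM. Placebo 1 was lowest for all 3 genes and Placebo 2 lay above both progesterone libraries of its batch. The log2 changes were 0.63 for Hmox1 (SE 1.26), 1.03 for Mt1 (SE 1.28) and 0.39 for Mt2 (SE 1.56), none of which passed, and all 3 turned negative without Placebo 1, at -0.58, -0.22 and -0.86. That left Placebo 2 alone in its group.

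Lcn2 in macrophages was at 6.94, 5.34 and 4.58 CPM in the progesterone libraries, against 0 UMIs and 23.6 CPM in the placebo libraries (log2 change -1.77, SE 0.479, adjusted p = 0.164). Summed epithelial markers in the same macrophages were 103, 748 and 656 CPM, against 30.04 and 1174 CPM, and their part in the Lcn2 values was not tested. Cp was at 5.75, 14.9 and 13.9 CPM, against 0 UMIs and 7.23 CPM (log2 change 1.07, SE 0.333, adjusted p = 0.152). Slc40a1 was near its floor, between 0 and 4.34 CPM, in all 5 libraries (log2 change -0.79, SE 0.485, adjusted p = 0.50). Without Placebo 1 the fit called many more genes, with Placebo 2 alone in its group, so its calls were not read for single members.

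Macrophages also differed in make-up. The Apoe and Ms4a7 cluster, which was high in C1qa and Trem2, held 32.1%, 80.2% and 76.3% of macrophages in the progesterone libraries, against 6.67% and 36.3% in the placebo libraries. The Ms4a4c and Mucl1 cluster, high in the monocyte gene Ly6c2, held 66.2%, 12.0% and 14.0%, against 93.3% and 14.7%. The Retnla and Lyz1 cluster, high in Mrc1, held 1.69%, 7.81% and 9.71%, against 0% and 49.0%. Placebo 2 and the progesterone libraries of its batch therefore differed mainly in the first and last of these.

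Tfrc was lower under progesterone in each of the 3 clusters within batch 2. It was at 9.84 and 10.0 CPM in Progesterone 2 and Progesterone 3, against 15.5 CPM in Placebo 2, in the Apoe and Ms4a7 cluster. In the Ms4a4c and Mucl1 cluster it was at 13.3, 15.4 and 14.5 CPM, against 22.1 and 28.4 CPM, and in the Retnla and Lyz1 cluster at 19.6 and 19.6 CPM, against 53.9 CPM. The Retnla and Lyz1 cluster, to which Placebo 2 gave 306 of its 625 macrophages, had the highest Tfrc of the 3 in every library with enough cells.

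Fth1 in the Apoe and Ms4a7 cluster was lower in every progesterone library than in Placebo 2, at 17420, 20479 and 20899 CPM in the progesterone libraries, against 26212 CPM. In the Ms4a4c and Mucl1 cluster it was at 11593, 17943 and 15244 CPM, against 9906 and 12472 CPM. The Retnla and Lyz1 cluster was low, at 5026 and 5971 CPM in Progesterone 2 and Progesterone 3, against 6763 CPM in Placebo 2. Hmox1 in the Ms4a4c and Mucl1 cluster was at 510.3, 311 and 318 CPM in the progesterone libraries, against 62.6 and 96.2 CPM in the placebo libraries, a gap with no overlap. In the Apoe and Ms4a7 cluster Hmox1 was at 1329, 588 and 388 CPM, against 1010.3 CPM in Placebo 2, and Placebo 1 had 1 cell there, so batch 1 gave no comparison. Progesterone 2 and Progesterone 3 lay below the placebo library of their batch. These cluster values carry no test.

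**Figure D4:**
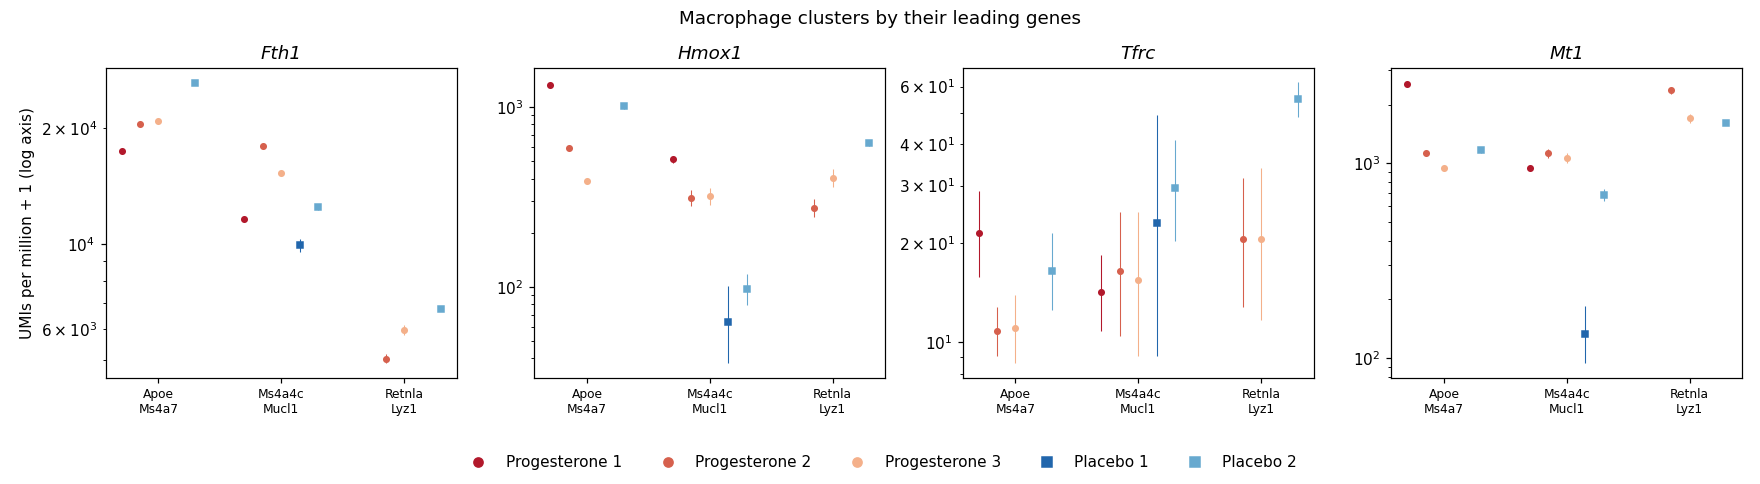
Levels of Fth1, Hmox1, Tfrc and Mt1 in CPM plus 1 (log axis) in the 3 macrophage clusters, named by leading genes, with exact Poisson intervals at 95%. Circles are progesterone libraries and squares placebo libraries; Tfrc is higher in Placebo 2 than in Progesterone 2 and Progesterone 3 in all 3 clusters.

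Whether progesterone changed a gene differently in epithelial cells and macrophages was tested with an interaction term over both classes, a model added after seeing the data and fitted without a term for the library. Of 14617 genes, 5.08% passed, and 3 of the 10 members were among them. The epithelial effect minus the macrophage effect was -1.38 on the log2 scale for Fth1 (SE 0.177, edgeR adjusted p = 0.00226), -2.03 for Cp (SE 0.352, edgeR adjusted p = 0.0109) and 1.24 for Tfrc (SE 0.233, edgeR adjusted p = 0.0163). The fitted Tfrc change was thus negative in both classes and larger in macrophages, although Tfrc in epithelial cells of Progesterone 1 lay above Placebo 2. When each library other than Placebo 2 was left out in turn, Fth1 passed in all 4 fits, between -1.28 and -1.43, while Tfrc and Cp did not pass without Progesterone 2 or without Progesterone 3. Without Placebo 1 the effects in both classes rest on Placebo 2 alone, and that fit called many more genes, so its other calls were not read for single members. Placebo 2 could not be left out, since the epithelial effect rests on it. The 2 classes share their libraries, so their values are not independent. Within the Krt6a and Muc19 and the Defb1 and Calca epithelial clusters, Fth1 was higher under progesterone. In batch 2 macrophages, Fth1 was lower under progesterone in the Apoe and Ms4a7 and the Retnla and Lyz1 clusters. It was higher in the Ms4a4c and Mucl1 cluster. The part of cluster make-up in the Fth1 difference was not tested.

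In fibroblasts, 1 of the 9 members tested was called, against 2.1% of 11397 genes (0.807% lower). It was Lcn2, which was at 0, 3 and 16 UMIs in the progesterone libraries, against 213 UMIs in Placebo 2, or 0, 1.82 and 5.39 CPM against 25.2 CPM. The log2 change was -2.33 (SE 0.414, edgeR adjusted p = 0.0312), and DESeq2 called no member. Without the batch term it did not pass (adjusted p = 0.59). Epithelial markers summed to 212, 630.4 and 635 CPM in these fibroblasts, against 959 CPM in Placebo 2, and their part in the Lcn2 call was not tested. Mt1 was at 557, 1916 and 3042 CPM in progesterone fibroblasts, against 1490.5 CPM in Placebo 2 (log2 change 0.91, SE 0.302, adjusted p = 0.226). Mt2 was at 408, 981 and 1356 CPM, against 953 CPM (log2 change 0.47, SE 0.24, adjusted p = 0.461). Both had the sign opposite to epithelial cells, and the difference between these classes was not tested.

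No member passed in the lymphoid or dendritic classes. The background of calls there was 0.0134% of 7455 genes in T cells, 0.454% of 7490 in B cells, 0.0919% of 8707 in conventional dendritic cells and 1.74% of 7300 in plasmacytoid dendritic cells, and 6 members were tested in each. At unadjusted p under 0.05, edgeR had 688, 586, 582 and 731 genes in these classes. Mt1 in T cells was at 81.2, 144 and 173 CPM in the progesterone libraries, against 1.16 and 183 CPM in the placebo libraries. The keratins and Epcam in the same T cells summed to 69.9, 1696 and 999 CPM, against 6.41 and 1159 CPM, and their part in the Mt1 values was not tested. Lcn2 in conventional dendritic cells was at 0, 5.86 and 2.15 CPM in the progesterone libraries, against 0 and 125 CPM in the placebo libraries, and 131 UMIs of the last value came from 1 cell.

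Neutrophils could not be compared between treatments, with 327, 25 and 29 cells in the progesterone libraries, against 8 and 4 in the placebo libraries. Slc40a1 in neutrophils of Progesterone 1 was at 191 CPM (interval 170.1 to 215), from 291 UMIs in 100 of 327 cells, or 30.6% (exact binomial interval 25.6% to 35.9%). The 388 T cells of that library, which should lack the gene and had a median of 8337.5 UMIs, held 1 Slc40a1 UMI. Neutrophil Slc40a1 was at 13.3 and 27.9 CPM in Progesterone 2 and Progesterone 3, from 1 and 2 UMIs. These neutrophils held 84.1% of all Slc40a1 UMIs in the cells kept from Progesterone 1.

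Cells of Progesterone 1 with a Slc40a1 UMI differed in other genes from those without. Elane, Prtn3 and Mpo, granule genes of early neutrophil stages, were at 1020.1, 1537 and 481 CPM in the 100 cells with Slc40a1, against 200.4, 207 and 23.6 CPM in the 227 cells without. Camp and Ngp, genes of secondary granules, were at 9181 and 4694 CPM with Slc40a1, against 2133 and 826 CPM without. The proliferation gene Mki67 was at 298 CPM, against 11.8 CPM, and Lcn2 at 1838 CPM, against 293 CPM. Cxcr2 and Il1r2, genes of mature neutrophils, ran the other way, at 89.4 and 947 CPM with Slc40a1, against 189.8 and 2056 CPM without. Median depth was 4096.5 UMIs in cells with Slc40a1, against 3156 UMIs in those without. Macrophage genes were low in both sets: C1qa was at 4.47 CPM, against 9.43 CPM, and Spic had 0 UMIs in each. The split comes from 1 library and was made on a measured gene, so it carries no test, and most of these Lcn2 UMIs came from 5 cells.

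**Figure D5:**
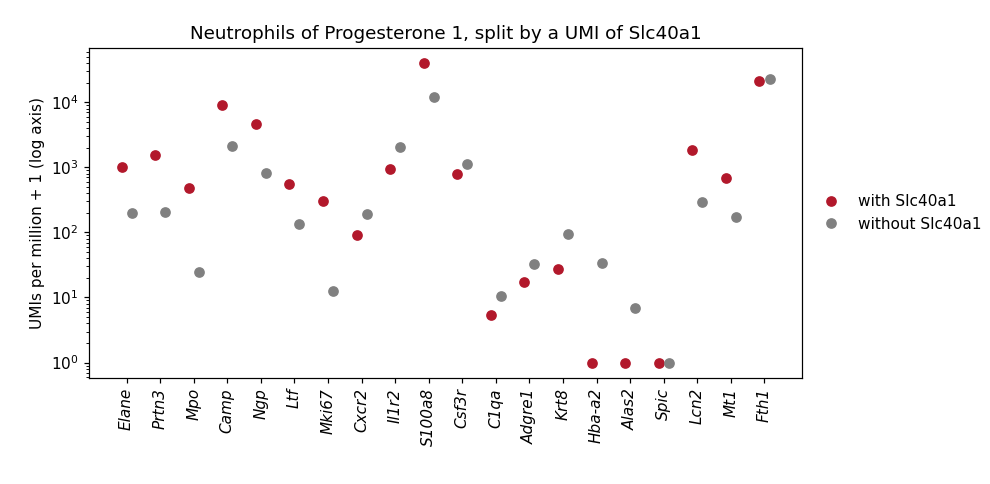
Levels of selected genes in CPM plus 1 (log axis) in neutrophils of Progesterone 1 that had at least 1 UMI of Slc40a1 (100 cells) or none (227 cells). Elane, Prtn3, Mpo, Camp, Ngp, Mki67 and Lcn2 are higher in cells with Slc40a1, and Cxcr2 and Il1r2 are lower.

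The genes most like each member were found by Pearson correlation of log2(CPM + 1) over 36 library and class units of at least 20 cells, among 6987 genes. The units share libraries and depth, so these are descriptions. Slc11a1 was most like C5ar1 (r = 0.956), Clec4e and Clec4d, which are myeloid receptors. Ftl1 was most like Tlr2 (r = 0.897) and Cd14, and Fth1 like Cd300a (r = 0.901). Mt1 and Mt2 were each the gene most like the other (r = 0.934). Tfrc was most like Rbm38 (r = 0.899), Slc40a1 like Sgms2 (r = 0.82) and Alas1, the first enzyme of heme synthesis, Hmox1 like the lipid droplet gene Plin2 (r = 0.831), Cp like Cavin2 (r = 0.802) and Lcn2 like BC100530 (r = 0.825).

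The rest of the pathway was described with 7 lists of 82 further genes. In epithelial cells 76 of them were tested, of which 14 rose and 35 fell, or 64.5% called beside 49.2% of all genes. In macrophages none of the 63 tested passed.

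In the list of iron uptake and reduction, 9 of 15 genes fell and 2 rose, with a median log2 change of -1.31. Steap1 and Steap2, of a family of metalloreductases, fell by 4.88 and 2.95, Ltf, which encodes the iron binder lactoferrin, by 3.82, and Slc22a17, a receptor for lipocalin 2, by 1.82 (edgeR adjusted p = 3.75e-15, 4.74e-12, 9.99e-11 and 3.54e-07). Ltf and Slc22a17 thus fell in the same cells as Lcn2. Cd163, a leading gene of the Retnla and Lyz1 macrophage cluster, fell by 2.35 in these epithelial sums. The part of macrophage RNA in that change was not tested. Among genes of zinc and copper handling, 9 of 13 fell and 1 rose, with a median of -0.44. The other metallothioneins tested, Mt4 and Mt3, fell by 3.70 and 1.53, and the zinc exporter Slc30a1 by 0.99 (edgeR adjusted p = 1.70e-06, 0.000375 and 7.01e-06), while the copper pump Atp7b rose by 4.13 (edgeR adjusted p = 3.98e-08). Mtf1, which encodes the factor that binds metal response elements, had a log2 change of -0.10 and did not pass (adjusted p = 0.385).

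In the list of heme synthesis and breakdown 6 of 11 genes fell and 1 rose, with a median of -0.37. Blvrb, which reduces biliverdin, fell by 2.11, and Alad and Cpox of heme synthesis by 0.97 and 0.60 (edgeR adjusted p = 2.27e-13, 1.70e-08 and 2.37e-05). Iron sensing and hepcidin control had 5 genes up and 1 down of 9, with a median of 0.39. Neo1, a coreceptor of hepcidin control in liver, rose by 2.48, Hfe by 1.39, and Ireb2, which encodes an iron regulatory protein, by 0.62 (edgeR adjusted p = 5.39e-13, 8.63e-07 and 1.63e-05). Aco1, which encodes the other iron regulatory protein, fell by 0.28 (edgeR adjusted p = 0.02).

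In storage, release and export 1 of 7 genes rose and 1 fell, with a median of 0.04: Hamp, the hepcidin gene, rose by 0.95 and Heph, a ferroxidase, fell by 1.38 (edgeR adjusted p = 0.0477 and 0.000365). Mitochondrial iron and iron-sulfur cluster genes were split, 3 up and 5 down of 10, with a median of -0.12. Nfs1, the cysteine desulfurase, rose by 0.59 (edgeR adjusted p = 2.76e-05). Of NRF2 targets and ferroptosis defence genes, 4 of 11 fell and 1 rose, with a median of -0.10. The cystine transporter Slc7a11 rose by 1.78 and Acsl4 fell by 1.35 (edgeR adjusted p = 1.64e-06 and 5.29e-10). Macrophage markers summed to 52.1, 20.9 and 13.9 CPM in the epithelial cells of the progesterone libraries, against 14.5 CPM in Placebo 2, and fibroblast markers to 2513, 12.0 and 15.5 CPM, against 28.6 CPM, so that both were highest in Progesterone 1.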

How the data were processed

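The deposited matrices, 1 per library and 5 in all, hold raw counts of UMIs for each gene in each barcode, which the authors deposited with no scaling. Per the file headers they came from Cell Ranger 8.0.1. Cell Ranger 7.0.0 with mm10 is what stands in the submitters' processing notes. Libraries were made with a 3′ droplet kit, version 3.1, per the labels. Library totals ran from 23409215 to 204786073 UMIs. Libraries were numbered within treatment by batch, and batches are those in the sample titles.

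Cells with at least 250 genes were kept, and doublets scored against simulated doublets were removed (1.83% to 5.01% of barcodes). The other cells were clustered (scanpy 1.11.5, 2000 variable genes without the members and lists, 30 components, 20 neighbours, Leiden resolution 1), which gave 29 clusters. Clusters were placed in 10 classes by marker lists, and 6 stayed unnamed (225 to 1309 cells per library). UMIs were summed per library and class over libraries with at least 10 cells. They were tested in 7 classes by edgeR's quasi-likelihood test (edgeR 4.0.16, R 4.3.3, TMM, filterByExpr, prior count 2, batch term), with Benjamini-Hochberg adjustment over all genes of the class at a threshold of 0.05. The fits of epithelial cells, fibroblasts and plasmacytoid dendritic cells lacked Placebo 1 and that of B cells lacked Progesterone 3, which left 1 residual degree of freedom in each. In those lacking Placebo 1 it came from Progesterone 2 against Progesterone 3 alone. With 6 arrangements of the labels within batches, an exact permutation test could reach p = 0.167 at best. The code was tested on simulated counts. Alternatives were DESeq2 1.42.0, other scaling and filters, no batch term, other clustering, thinned counts and each library left out.

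The 10 members and the 7 lists were chosen with earlier results of these data known. The text names all members, list genes called in epithelial cells or macrophages (at most 5 per list and class by size of change), and the 3 genes most like a member. Aco1 and Mtf1 were named after their values were seen.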

Additional observations from a re-analysis of the deposited data

Results flagged for a closer look

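Between epithelial cells and macrophages the progesterone effect differed for 3 members in an interaction test, as the epithelial minus the macrophage log2 effect: 1.24 for Tfrc, -1.38 for Fth1 and -2.03 for Cp. The effect in epithelial cells rests on 1 placebo library. For Fth1, levels within single clusters did not all follow these class effects, and the part of cluster make-up was not tested.

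A signal outside the comparisons was Slc40a1 at 191 CPM in the neutrophils of Progesterone 1, a class with too few placebo cells for a test. Another was Mt1 in a cluster that stayed unnamed, led by Nppb and Sprr1a, at 8038 CPM in Progesterone 1, against 1742 CPM in Placebo 1 of the same batch. In batch 2 that cluster had Mt1 at 834 and 417 CPM in Progesterone 2 and Progesterone 3, against 3683 CPM in Placebo 2, so the order of treatments was opposite in the 2 batches. Its median depth was 2484, 1116 and 1312 UMIs per cell in the progesterone libraries, against 1468 and 2954 UMIs in the placebo libraries.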

How the results depend on the processing

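Counts of genes called are given first as in the report and then under alternatives that moved them by over 1.5 times. Epithelial cells had 8208, with 4475 by DESeq2 and 2690 after thinning to the lowest total. Macrophages had 161, with 819 without a filter on low counts, 2204 with at least 20 cells per library and 24 after thinning. T cells had 1, with 39 by DESeq2, 282 without a filter and 0 after thinning (342 at unadjusted p under 0.05 by edgeR). B cells had 34, with 14, 73 and 10 in the same order. Fibroblasts had 239, with 66 by DESeq2, 805 without a filter, 81 after thinning, 565 without doublet removal and 644 at Leiden resolution 2. Conventional dendritic cells had 8, with 171 without a filter, 204 with at least 20 cells, 2 after thinning, 388 without doublet removal, 522 at resolution 2 and 19 with the members among the variable genes. Plasmacytoid dendritic cells had 127, with 4 by DESeq2 and 0 without a filter or without doublet removal (554 and 496 at unadjusted p under 0.05 by edgeR).

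Without the batch term, that is with no replicate block, edgeR called 0 genes in epithelial cells, macrophages, T cells, fibroblasts and conventional dendritic cells (2571, 469, 145, 490 and 298 at unadjusted p under 0.05), and 17 in B cells and 17 in plasmacytoid dendritic cells. No block together with leaving out the Wfdc18 and Csn3 cluster, chosen after seeing the data, gave 1920 in epithelial cells, with Lcn2 at -3.15 and Fth1 at -0.98 the 2 members called. The Cp change in epithelial cells reversed to 2.24 with no block.

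Leaving out libraries in turn gave 76 to 2216 calls in macrophages, 2 to 482 in T cells, 11 to 525 in conventional dendritic cells, and 123 to 2003 in the interaction test, which had 742. The lowest macrophage counts were without Progesterone 2 (76) and Progesterone 3 (88), and the highest without Progesterone 1 (2216) and Placebo 1 (2204), with 771 without Placebo 2. In epithelial cells, fibroblasts and plasmacytoid dendritic cells only Progesterone 1 could be left out, and B cells allowed none, since no residual degree of freedom remained. The interaction test was run without each library other than Placebo 2. In macrophages Hmox1 reversed to -0.58, Mt1 to -0.22 and Mt2 to -0.86 with at least 20 cells per library, which is the fit without Placebo 1, and without Progesterone 1 they were -0.57, -0.22 and -0.85. Without Placebo 2, Lcn2 reversed to 4.62 and Slc40a1 to 2.76 there, against a placebo library at 0 for both, and Hmox1, Mt1 and Mt2 were 3.37, 3.65 and 6.56. The lowest Lcn2 was -2.15 (without Placebo 1) and the lowest Slc40a1 -1.12 (without Progesterone 2). The interaction effect of Hmox1 reversed to 0.49 without Placebo 1 and 0.50 without Progesterone 1, with a low of -1.39 without Progesterone 3. That of Slc11a1 reversed to -0.021 without Progesterone 2, with a high of 0.73 without Progesterone 3.

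The class with the highest median share of cells with a UMI stayed the same for 5 of the 10 members when cells were thinned to 3000 UMIs. For single members and settings, 242 values kept direction and side of the threshold, 27 lost a call, 24 gained one and 15 reversed. Depth limits Slc11a1 outside macrophages and neutrophils, with 0 to 153 UMIs per class, and Slc40a1 outside epithelial cells and neutrophils, with 0 to 97 UMIs per class. Where no cause is given for a move, the cause was not tested.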

Other observations

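The unnamed cluster led by Nppb and Sprr1a also held Mt2, at 1160.0, 129 and 94.2 CPM in the progesterone libraries, against 274 and 674 CPM in the placebo libraries, from 200, 573 and 533 cells, against 151 and 212 cells. Mt2 thus followed Mt1 there, highest in Progesterone 1 and lowest in the other progesterone libraries.

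Hmox1 in the Retnla and Lyz1 macrophage cluster was at 274 and 403 CPM in Progesterone 2 and Progesterone 3, against 629 CPM in Placebo 2. Tfrc in the P4ha2 and Ndrg1 epithelial cluster was at 87.7, 79.3 and 71.7 CPM in the progesterone libraries, against 142 CPM in the 11 cells of Placebo 2, and was higher there in every library than in its epithelial class as a whole.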
